A study of Mus musculus with 6 samples.

Results

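A set of 5 genes that decide between survival, apoptosis and necroptosis was followed in mouse dendritic cells: Ripk1, Ripk3, Mlkl, Casp8 and Cflar. They were taken by name from the deposited expression table, which lists 23398 genes, and all 5 were found and passed the filter on low values. The study exposed dendritic cells grown from mouse bone marrow, in medium with serum and antibiotics, to Ca(OH)2 nanoparticles (3 libraries) or to vehicle (3 libraries). Exposure lasted 12 hours in both groups, and 1 µg of total RNA went into each library. The labels name no mouse strain, sex or age, and they do not say whether the libraries of a group came from separate cultures or animals, so p-values measure only the spread between these libraries, which may be technical.

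Necroptosis is a lytic form of programmed cell death that opens when caspase 8 is held back. RIPK1 is a kinase and scaffold that is recruited to death receptors. RIPK3 is the kinase that binds RIPK1 or other proteins through a shared interaction motif, the RHIM, and then phosphorylates MLKL, a pseudokinase that oligomerizes and damages the plasma membrane. Caspase 8 cleaves RIPK1 and RIPK3 and can instead start apoptosis through the executioner caspases. Cflar encodes cFLIP, a caspase 8 homologue without protease activity, whose long form pairs with caspase 8 and restrains both outcomes. Macrophages and dendritic cells are cell types in which this balance has been widely studied.

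Of these genes, Cflar and Mlkl rose with nanoparticles, and Ripk1, Ripk3 and Casp8 did not pass the test. Levels are taken as FPKM, fragments per kilobase of gene, on the deposited scale between libraries. That scale does not follow the recovered read totals, and how it was set is not given. Changes are differences in log2(FPKM + 1), nanoparticle minus vehicle, tested with limma over the 10682 genes that reached 1 FPKM in 3 or more libraries. A gene was called where its Benjamini-Hochberg adjusted p was below 0.05. The 2 of 5 genes called compare with 33.2% of all tested genes called in either direction, 17.0% higher and 16.2% lower. The groups did not overlap in 2 of the 5 genes, both higher, against 52.1% of all tested genes, 25.9% higher and 26.2% lower. The share of the 5 genes that was called is near that of all genes.

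Read totals recovered from the FPKM ran from 17294302 to 21986486 per library. Nanoparticle library 1 stood apart from nanoparticle libraries 2 and 3, with correlations of log2(FPKM + 1) across tested genes of 0.9423 and 0.9282 to them, against 0.9895 between libraries 2 and 3 and 0.9926 to 0.9938 between vehicle libraries. Without it 6923 genes (64.8%) were called in place of 3550. For the 5 genes, changes in level that rest on it are given with and without it. For most other named genes only the fit with it is given. The 5 genes held 609 to 18985 reads in each library, which puts their counting error at no more than 4.05% of the value.

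Among dendritic cell markers, the integrin Itgax (CD11c) was at 442 to 456 FPKM in vehicle and 248 to 398 FPKM with nanoparticles. Not all of these markers were present in every library. Flt3 was at most 0.0793 FPKM in any library, and Xcr1 was at 0.0902 to 0.181 FPKM in vehicle. Cd209a was at 0, 0.0763 and 0 FPKM in nanoparticle libraries 1 to 3. Summed FPKM of the 12 dendritic cell markers was 1524 to 1572 in vehicle and 829, 1541 and 1615 in nanoparticle libraries 1 to 3. H2-Ab1 and Itgax gave most of this sum in every library. Of the 10 tested markers, 1 was higher and 5 were lower, or 4 without Cd209a, which passed the filter only through the vehicle libraries. Summed FPKM of the 12 macrophage markers was 1215 to 1349 in vehicle and 1520 to 1883 with nanoparticles, and 4 were higher and 5 lower. The 12 neutrophil markers summed to 265 to 299 FPKM in vehicle and 180 to 253 FPKM with nanoparticles, of which Mmp8 gave most. Of the 3 tested, Mmp8 was lower, S100a8 was higher (34.9 to 83.1 FPKM, limma adjusted p = 0.0216) and S100a9 did not pass, while Mpo, Elane and Prtn3 were at 0 in all vehicle libraries. Markers of T and NK cells, B cells and red cells each summed to less than 1 FPKM in every library. Markers of mast cells and basophils summed to 1.99 to 5.78 FPKM over all libraries. Stromal markers summed to 2.54 FPKM in nanoparticle library 1, nearly all of it Dcn, and to at most 0.365 FPKM elsewhere. In bulk RNA, fewer cells of a type and less RNA per cell cannot be told apart, and the part of these shifts in the results below was not tested.

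The RIP kinases showed no change past the threshold. Ripk1 (ENSMUSG00000021408) lies on the plus strand at chr13:34002363-34037147 (GENCODE M21, GRCm38). Its level was 6.86, 7.42 and 6.84 FPKM in vehicle libraries 1 to 3 and 8.47, 5.94 and 5.39 FPKM in nanoparticle libraries 1 to 3. The groups overlapped: nanoparticle library 1 lay above every vehicle library and libraries 2 and 3 lay below all of them. Means were 7.04 ± 0.330 and 6.60 ± 1.64 FPKM (SD, n = 3 each). The log2 difference was -0.10 with SE 0.162 and a 95% interval from -0.49 to 0.29 (adjusted p = 0.671, limma). Without nanoparticle library 1, Ripk1 was called lower, by -0.27 in log2 (adjusted p = 0.0176, limma), as were 30.5% of all tested genes (34.3% were higher). The first 432 bases of the gene overlap Serpinb6a on the other strand, and the library strand is not given in the sources used here, so reads in that stretch cannot be assigned with certainty.

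Ripk3 (ENSMUSG00000022221) lies on the minus strand at chr14:55784995-55788865. Its level was 20.3, 19.5 and 19.7 FPKM in vehicle libraries 1 to 3 and 17.8, 16.1 and 19.7 FPKM in nanoparticle libraries 1 to 3. Nanoparticle libraries 1 and 2 lay below every vehicle library, and library 3 lay among them. Means were 19.8 ± 0.440 and 17.9 ± 1.84 FPKM (SD, n = 3 each). The log2 difference was -0.15 with SE 0.107 and a 95% interval from -0.41 to 0.11 (adjusted p = 0.347, limma). Unlike the other members, Ripk3 was not raised in nanoparticle library 1, which held 0.994 times the mean of libraries 2 and 3. This result depends on the scaling between libraries. Under scaling to the recovered read totals, Ripk3 was called lower by -0.47 in log2 (adjusted p = 0.0117, limma), and so were 33.8% of all tested genes, with 10.4% higher. The median of all tested genes then moved from -0.0010 to -0.28, so that Ripk3 lay -0.19 from that median.

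Mlkl, the executor of necroptosis, rose. Mlkl (ENSMUSG00000012519) lies on the minus strand at chr8:111311797-111338177. Its level was 16.1, 15.8 and 14.97 FPKM in vehicle libraries 1 to 3 and 84.9, 49.7 and 53.3 FPKM in nanoparticle libraries 1 to 3. Every nanoparticle library was above every vehicle library, and library 1 was the highest. Means were 15.6 ± 0.600 and 62.6 ± 19.4 FPKM (SD, n = 3 each), a ratio of means of 4.0. The log2 difference was 1.89 with SE 0.210 (adjusted p = 0.00113, limma). Without nanoparticle library 1 the ratio of means was 3.29. A larger increase was found in 3.17% of tested genes. The rise stayed past the threshold under every setting tried, with log2 changes from 1.47 to 2.04.

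Caspase 8, the protease that restrains the RIP kinases, did not pass the test. Casp8 (ENSMUSG00000026029) lies on the plus strand at chr1:58795374-58847503. Its level was 22.7, 24.3 and 25.7 FPKM in vehicle libraries 1 to 3 and 38.2, 22.5 and 25.0 FPKM in nanoparticle libraries 1 to 3. Only nanoparticle library 1 lay above the vehicle range, library 2 lay below it, and library 3 lay within it. Means were 24.2 ± 1.5 and 28.6 ± 8.43 FPKM (SD, n = 3 each). The log2 difference was 0.19 with SE 0.203 and a 95% interval from -0.30 to 0.68 (adjusted p = 0.512, limma). The sign of this change has no fixed direction, since it was -0.028 without nanoparticle library 1 and -0.14 with scaling by read totals, neither past the threshold.

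Cflar rose, and its log2 difference was the largest of the 5 genes. Cflar (ENSMUSG00000026031) lies on the plus strand at chr1:58711508-58758884, next to Casp8 on the same strand. Its level was 7.98, 8.16 and 8.53 FPKM in vehicle libraries 1 to 3 and 91.8, 40.5 and 32.7 FPKM in nanoparticle libraries 1 to 3. The groups did not overlap, and nanoparticle library 1 held 2.51 times the mean of libraries 2 and 3. Means were 8.22 ± 0.280 and 55.0 ± 32.1 FPKM (SD, n = 3 each), a ratio of means of 6.69. The log2 difference was 2.46 with SE 0.365 (adjusted p = 0.0034, limma). Without nanoparticle library 1 the ratio of means was 4.45, and the log2 difference was 2.02 (adjusted p = 1.0e-05, limma). A larger increase was found in 1.94% of tested genes, and the call held under every setting tried, with log2 changes from 2.02 to 2.75. The table gives 1 value for the whole gene, so the long and short forms of cFLIP were not distinguished.

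**Figure D1:**
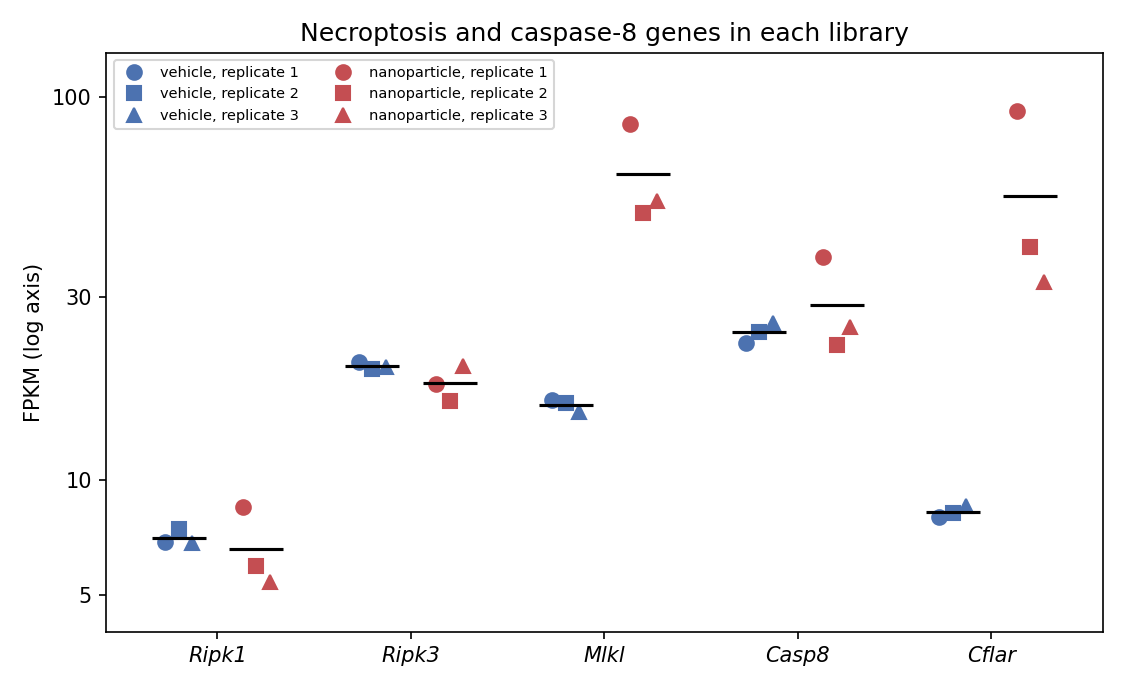
Level of each of the 5 genes in each library, in FPKM on a log axis, with vehicle in blue and nanoparticle in red. Point shapes mark the replicate number and black lines the group means (n = 3). The Mlkl and Cflar groups are apart, and nanoparticle replicate 1 is the highest nanoparticle library in Ripk1, Mlkl, Casp8 and Cflar but not in Ripk3.

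The order of levels per length changed between the groups. In each vehicle library it was Casp8, Ripk3, Mlkl, Cflar and Ripk1 from highest to lowest, and no neighbours in that order overlapped in range. With nanoparticles Mlkl and Cflar stood above Casp8 in every library. Mlkl was above Cflar in libraries 2 and 3 but below it in library 1, and their ranges overlapped, as did those of Cflar and Casp8. Ripk3 ranked 2 of 5 in every vehicle library and 4 of 5 in every nanoparticle library, and Ripk1 was the lowest in all 6 libraries. Whole reads were recovered with merged exon lengths, which are 12669 bases for Cflar and 8344 for Ripk1, whereas their longest annotated coding transcripts have 6572 and 6472 bases. Per kilobase of the longest coding transcript, mean Cflar would be 15.8 FPKM in vehicle and 106 FPKM with nanoparticles, and mean Casp8 27.1 and 32.0 FPKM. Per kilobase of the shortest coding transcript, mean Cflar would be 58.8 FPKM in vehicle and 393 FPKM with nanoparticles. Mean Casp8 would be 43.1 and 50.7 FPKM, so that Cflar would be above Casp8 in vehicle too. The order between genes, and ranks within it, are thus specific to the gene models. The ratio of means of a gene between groups does not depend on its length.

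Ratios of the other 4 genes to Casp8 were computed within each library, which removes the scaling between libraries. The ratio of Mlkl to Casp8 was 0.711, 0.651 and 0.583 in vehicle libraries 1 to 3 and 2.22, 2.21 and 2.13 in nanoparticle libraries 1 to 3. All nanoparticle libraries were above all vehicle libraries, and library 1 did not stand apart in this ratio. It held 1.65 times the mean of libraries 2 and 3 for Mlkl and 1.61 times for Casp8. The difference of mean log2 ratios was 1.76 (exact two-sided permutation p = 0.1, adjusted p = 0.133 over the 4 ratios), and 0.1 is the smallest p that 3 libraries against 3 allow. The ratio of Cflar to Casp8 was 0.352, 0.335 and 0.332 in vehicle and 2.40, 1.80 and 1.31 with nanoparticles. These groups were apart too, with a difference of mean log2 ratios of 2.39 (exact permutation p = 0.1, adjusted p = 0.133).

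Relative to Casp8, Ripk1 stood lower in all nanoparticle libraries and Ripk3 in some of them. The ratio of Ripk1 to Casp8 was 0.303, 0.305 and 0.266 in vehicle libraries 1 to 3 and 0.222, 0.264 and 0.216 in nanoparticle libraries 1 to 3. The groups were apart by a narrow margin, with a difference of mean log2 ratios of -0.32 (exact permutation p = 0.1, adjusted p = 0.133). The ratio of Ripk3 to Casp8 was 0.895, 0.799 and 0.766 in vehicle and 0.466, 0.714 and 0.790 with nanoparticles. Here the groups overlapped, and the difference of -0.35 (exact permutation p = 0.2, adjusted p = 0.2) was -0.12 without nanoparticle library 1. None of the 4 ratios passed a threshold of 0.05, which this test cannot reach.

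**Figure D2:**
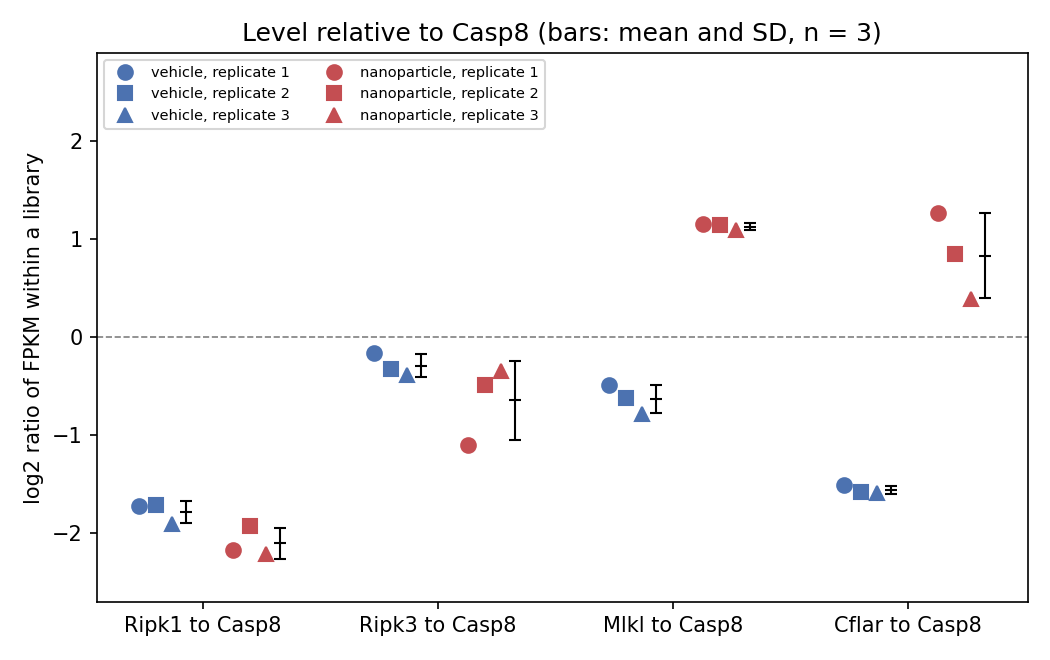
Log2 ratio of the FPKM of Ripk1, Ripk3, Mlkl and Cflar to that of Casp8 in each library, with vehicle in blue and nanoparticle in red, and the mean and SD of each group (n = 3) as black bars. On the deposited levels the ratios of Mlkl and Cflar cross from below 0 in all vehicle libraries to above 0 in all nanoparticle libraries. Where 0 falls depends on the gene lengths used. Per kilobase of the shortest coding transcript, vehicle means would be 58.8 FPKM for Cflar and 43.1 FPKM for Casp8.

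The genes with the most similar profiles were found by the root-mean-square difference, over the 6 libraries, of log2(FPKM + 1) centred on the vehicle mean, among 6109 other genes with a mean of at least 5 FPKM. For Mlkl these were Parp9 (0.058) and Sp110 (0.063). Parp9 was at 6.77, 6.81 and 6.39 FPKM in vehicle libraries 1 to 3 and at 35.7, 23.8 and 24.0 FPKM in nanoparticle libraries 1 to 3. Both genes share with Mlkl the highest value in nanoparticle library 1, which their choice by likeness over the same libraries favours. For Cflar they were Pde4b (0.083), a phosphodiesterase that degrades cyclic AMP, and Slco3a1 (0.085), an organic anion transporter. Pde4b was at 0.870, 0.697 and 0.712 FPKM in vehicle and 17.7, 6.86 and 5.0 FPKM with nanoparticles. Its nearness to Cflar depends on the pseudocount of 1, under which the log2 changes were 2.45 for Pde4b and 2.46 for Cflar. With a pseudocount of 0.1 they were 3.32 and 2.58, and Slco3a1 moved from 2.36 to 2.70. Pde4b, Slco3a1 and Sp110 reached the mean of 5 FPKM through the nanoparticle libraries, so the filter favours genes that are high there. Narf, named below for Casp8, reached it through nanoparticle library 1 alone, at 8.30 FPKM, the library in which Casp8 was highest. The nearest profiles were Srrm1 (0.037) and Vps39 (0.040) for Ripk1, Qpctl (0.018) and Tm9sf1 (0.049) for Ripk3, and Narf (0.045) and Hmga1b (0.056) for Casp8. Hmga1b is a near copy of Hmga1, so its value is uncertain. Between the members themselves, the difference was smallest for Ripk1 and Ripk3, at 0.21, followed by 0.24 for Ripk1 and Casp8, and it was 0.46 for Mlkl and Cflar.

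The stretches before the start sites of Mlkl and Cflar are shown because these genes rose in the same libraries, and that of the second Ripk1 start because it held the motif matches. All 5 genes were matched by symbol to the RefSeq start sites on GRCm38.p6, with 2 starts for Ripk1 and 1 for each of the others. The 250 bases before each start were searched on both strands for GAAANNGAAA, the interferon-stimulated response element (ISRE), for TTCNNNGAA, the gamma-activated site (GAS) of STAT factors, and for the NF-kappaB consensus. ISRE matches were present in 2.98% of all 32851 such stretches, GAS matches in 7.02% and NF-kappaB matches in 5.93%. No stretch of Mlkl, Cflar, Casp8 or Ripk3 held a match, which says only that these letters are not in this window. The second Ripk1 stretch held TTCCCGGAA at positions -108 to -100 and again at -11 to -3, counted from the start, shown in capitals. GAS is its own reverse complement and each site was counted once. Mlkl is on the minus strand, at chr8:111338206-111338455, Cflar on the plus strand, at chr1:58711241-58711490, and Ripk1 on the plus strand, at chr13:34002624-34002873.
Mlkl: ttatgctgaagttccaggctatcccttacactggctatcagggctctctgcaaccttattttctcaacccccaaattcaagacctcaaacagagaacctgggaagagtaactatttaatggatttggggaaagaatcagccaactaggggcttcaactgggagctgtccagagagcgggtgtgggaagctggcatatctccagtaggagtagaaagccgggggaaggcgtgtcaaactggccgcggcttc
Cflar: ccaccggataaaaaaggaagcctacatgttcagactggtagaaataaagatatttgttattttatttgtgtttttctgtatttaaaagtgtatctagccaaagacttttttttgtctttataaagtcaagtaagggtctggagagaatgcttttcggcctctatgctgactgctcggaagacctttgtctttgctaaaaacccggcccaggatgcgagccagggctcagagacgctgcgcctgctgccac
Ripk1, second start: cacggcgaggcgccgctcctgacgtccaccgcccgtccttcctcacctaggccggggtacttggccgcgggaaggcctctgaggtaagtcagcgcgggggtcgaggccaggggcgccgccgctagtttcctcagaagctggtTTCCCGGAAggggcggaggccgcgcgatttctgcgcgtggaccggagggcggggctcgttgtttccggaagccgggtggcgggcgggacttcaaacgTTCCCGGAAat

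The other genes of the pathway were followed in lists chosen by function. Over 6 lists with 77 genes, 74 were tested, of which 35 were higher, 5 lower and 34 not past the threshold, a share of 54.1% called against 33.2% of all tested genes. Their median log2 change was 0.34 (0.32 without Tnfsf10), and that of all tested genes was -0.0010. With scaling by read totals 27 were higher and 11 lower, against 10.4% and 33.8% of all tested genes. With TPM 23 were higher and 16 lower, against 8.28% and 39.7% of all tested genes. Without nanoparticle library 1, 47 were higher and 10 lower, against 34.3% and 30.5% of all tested genes. From each list up to 4 called genes with the smallest adjusted p are described, as are Zbp1, Fadd and Casp6, and any gene named beyond these was chosen after its values were seen.

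Death receptors and their ligands feed signals into RIPK1 and caspase 8. Of the 7 tested genes of this list 4 were called higher and none lower, against 17.0% higher and 16.2% lower of all tested genes. Without Tnfsf10, which passed the filter only through the nanoparticle libraries, 3 of 6 were higher and the median log2 change was 1.05. Tnf, the ligand that starts the best known route to necroptosis, was at 48.5, 47.8 and 46.5 FPKM in vehicle libraries 1 to 3 and at 965, 1264 and 1072 FPKM in nanoparticle libraries 1 to 3. That is a log2 difference of 4.49 with SE 0.141 (adjusted p = 2.4e-05, limma), and the groups were far apart. The death receptor Fas rose from 3.34 ± 0.117 to 17.1 ± 5.88 FPKM (SD, n = 3 each, limma adjusted p = 0.00189), and here nanoparticle library 1, at 10.5 FPKM, was the lowest of its group. Tnfrsf1b, a TNF receptor without a death domain, rose from 140.2 ± 4.73 to 571 ± 158 FPKM (limma adjusted p = 9.1e-04). Tnfsf10, which encodes the ligand TRAIL, was at 0.188 ± 0.0236 and 2.04 ± 0.872 FPKM (limma adjusted p = 0.00361). It reached the filter of 1 FPKM through the nanoparticle libraries alone, so it could enter the test only by being high there. The genes not past the threshold were Tnfrsf1a, the TNF receptor with a death domain, at 52.8 ± 2.05 and 55.4 ± 5.18 FPKM, with Tnfrsf10b and Ltbr.

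Adaptors join receptors or sensors to RIPK1, RIPK3 and caspase 8. Of 6 tested genes 3 rose and none fell, with a median log2 change of 0.51. Zbp1, a nucleic acid sensor that binds RIPK3 through its RHIM, was at 4.92, 4.3 and 4.26 FPKM in vehicle libraries 1 to 3 and at 96.4, 78.1 and 81.5 FPKM in nanoparticle libraries 1 to 3. This is a log2 difference of 3.97 with SE 0.120 (adjusted p = 2.1e-05, limma), with no nanoparticle library standing apart. Fadd, the adaptor that brings caspase 8 to death receptors, was at 2.42 ± 0.245 in vehicle and 3.90 ± 0.142 FPKM with nanoparticles (log2 change 0.52, limma adjusted p = 0.00803). The call for Fadd was lost with scaling by read totals, at 0.26 (limma adjusted p = 0.0804). It was also lost with TPM, at 0.20 (limma adjusted p = 0.310), and in limma-voom, at 0.34 (adjusted p = 0.0895). Leaving out vehicle library 3 lost the call too (limma adjusted p = 0.0513). Tlr3, a receptor for double-stranded RNA, rose from 1.85 ± 0.222 to 5.93 ± 2.66 FPKM (limma adjusted p = 0.0131). Without vehicle library 3 its limma adjusted p became 0.0571. Only 1 gene of the list was then called, and 20.0% of all tested genes in place of 33.2%. Ticam1, the RHIM adaptor of Tlr3 and Tlr4, Tradd and Tlr4 were not past the threshold.

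Ubiquitin ligases, deubiquitinases and kinases control whether RIPK1 stays in its survival form, and several are themselves targets of NF-kappaB. The genes of this list do not all act in the same direction, so its counts give no direction for RIPK1. Of 22 tested genes 13 rose, none fell and 9 did not pass, with a median log2 change of 0.70. Among all tested genes 17.0% were higher and 16.2% lower. Mapkapk2, a kinase that phosphorylates RIPK1, was at 59.6, 64.3 and 58.8 FPKM in vehicle libraries 1 to 3 and at 224, 224 and 225 FPKM in nanoparticle libraries 1 to 3. All nanoparticle libraries held nearly equal levels (log2 change 1.87, SE 0.104, limma adjusted p = 1.1e-04). Birc3, which encodes the ubiquitin ligase cIAP2, rose from 5.78 ± 0.389 to 27.7 ± 3.30 FPKM (SD, n = 3 each, limma adjusted p = 1.2e-04). Tnip1, a ubiquitin-binding partner of A20, rose from 20.4 ± 0.700 to 100.4 ± 14.7 FPKM (limma adjusted p = 1.3e-04). Tank, an adaptor of the kinases TBK1 and IKK epsilon, rose from 11.1 ± 1.10 to 38.8 ± 4.94 FPKM (limma adjusted p = 3.3e-04).

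Genes of the caspase cascade below caspase 8 and of mitochondrial apoptosis moved in both directions. Casp6, an effector caspase, fell from 4.44 ± 0.691 to 2.01 ± 0.155 FPKM (SD, n = 3), a log2 difference of -0.85 with SE 0.125 (adjusted p = 0.00333, limma). In this list 4 of 12 genes rose, 4 fell and 4 did not pass, with a median log2 change of 0.24. Cycs, cytochrome c of the respiratory chain and an activator of caspase 9, rose from 21.6 ± 0.927 to 40.4 ± 6.42 FPKM (limma adjusted p = 0.00468), and Htra2 was also higher. Casp9, the initiator caspase of the mitochondrial route, Casp2, and Dffa, the inhibitor of the caspase-activated nuclease, were lower beside Casp6. Without vehicle library 2, 5 genes of this list were called in place of 8, and 20.5% of all tested genes in place of 33.2%.

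Genes that act on MLKL or on damaged membrane were a further list. Of 18 tested genes 4 were higher, 1 lower and 13 not past the threshold, with a median log2 change of 0.18. Of all tested genes 17.0% were higher and 16.2% lower. Itpk1, an inositol phosphate kinase whose products are needed for MLKL activation, was at 15.1, 15.5 and 15.1 FPKM in vehicle libraries 1 to 3 and at 10.02, 9.90 and 10.7 FPKM in nanoparticle libraries 1 to 3. It was lower in every nanoparticle library (log2 change -0.54, SE 0.0871, limma adjusted p = 0.00475). Chmp4b, a subunit of the ESCRT-III complex that sheds damaged membrane, rose from 105 ± 2.19 to 214 ± 40.2 FPKM (limma adjusted p = 0.00485), and nanoparticle library 1, at 172 FPKM, was the lowest of its group. Chmp2a, another ESCRT-III subunit, was at 73.2 ± 2.83 and 137 ± 29.9 FPKM (limma adjusted p = 0.0116), and its call was lost without vehicle library 1 or 2. The chaperone gene Hsp90aa1 (log2 change 0.53, limma adjusted p = 0.0206) lost its call with scaling by read totals, TPM, limma-voom and the replicate block (adjusted p = 0.292, 0.768, 0.288 and 0.0636), and without any 1 of vehicle libraries 1, 2 and 3 and nanoparticle library 2. Ppm1b, a phosphatase, was the other gene called higher. The number of calls in this list moved with single libraries, as did the share of all tested genes called. In the list 13 were called without nanoparticle library 1, 3 without nanoparticle library 2, and 2, 2 and 3 without vehicle libraries 1, 2 and 3. Of all tested genes 64.8%, 26.3%, 20.8%, 20.5% and 20.0% were called in that order, against 33.2% with all libraries.

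**Figure D3:**
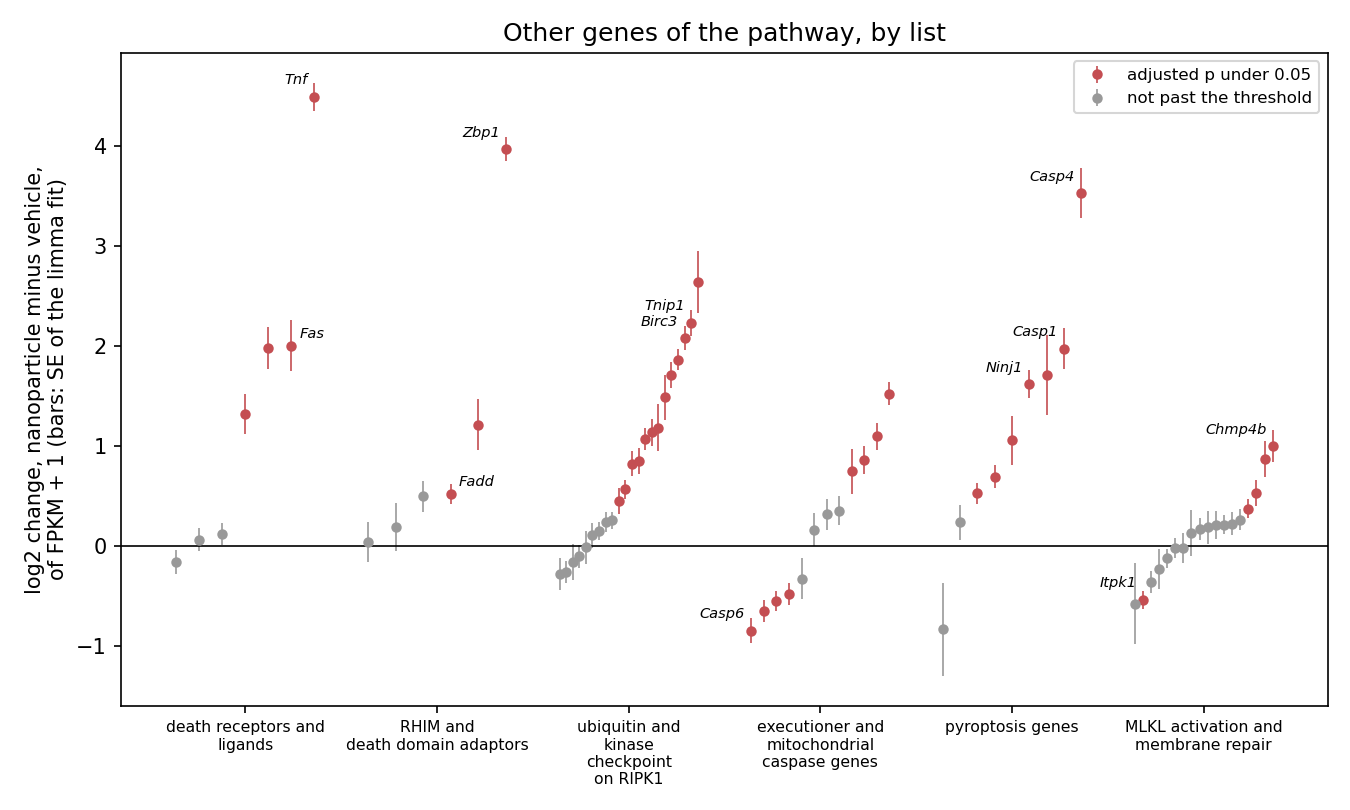
Log2 change of each tested gene of the pathway lists, nanoparticle minus vehicle on the log2(FPKM + 1) scale, with the SE of the limma fit as bars. Red points are past an adjusted p of 0.05 and grey points are not. Tnf and Zbp1 lie highest at 4.49 and 3.97, and Casp6 is the lowest called gene at -0.85.

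**Figure D4:**
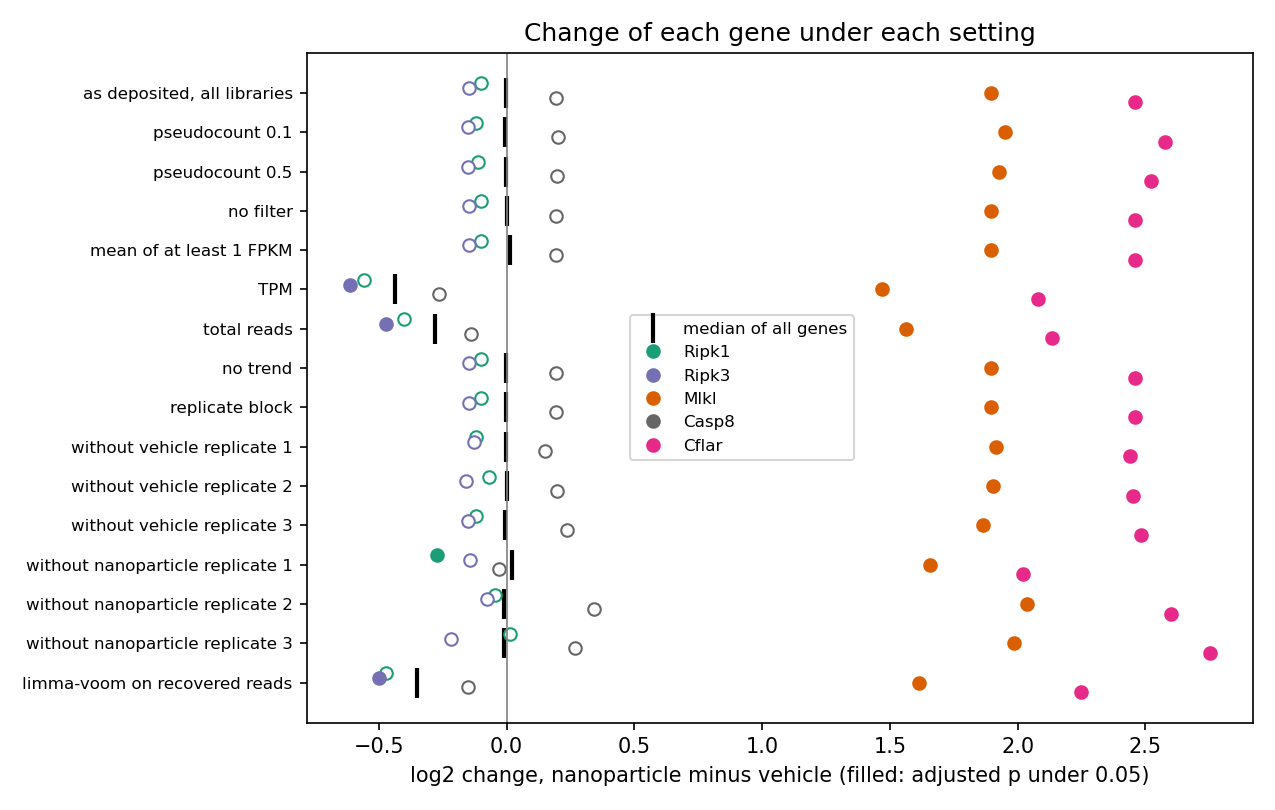
Log2 change of the 5 genes under each setting of the processing, with filled points for an adjusted p under 0.05 and a black tick for the median of all tested genes. Mlkl and Cflar stay filled and at 1.47 or more in all rows, while Casp8 changes sign and Ripk3 is filled where libraries were scaled by totals and in the limma-voom fit.

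The share of all tested genes called differed between settings, and member and list calls are read against it. It was 32.5% and 33.1% with pseudocounts of 0.1 and 0.5, 14.4% with no filter, 32.0% with a filter on the mean, and 33.3% with no trend. It was 48.0% with TPM (8.28% higher, 39.7% lower), 44.2% with read totals, 44.5% with limma-voom (10.1% higher, 34.4% lower), and 26.1% with the replicate block. Leaving out vehicle libraries 1, 2 and 3 gave 20.8%, 20.5% and 20.0%, and leaving out nanoparticle libraries 2 and 3 gave 26.3% and 30.4%.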

How the data were processed

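RNA sequencing was done on 3 vehicle and 3 nanoparticle libraries, grouped and numbered by their titles. The submitters' processing notes name CASAVA, STAR 2.5, HTSeq, edgeR 3.16.5 and DESeq2 2, and the builds mm10 and hg19, with no role or order. Read length, strand and normalization are not given in the sources used here. The authors deposited 2 tables whose 140388 values are identical, one of them named for read counts. The values are not whole, and the deposited unit was taken as FPKM from the values: times the merged exon length of GENCODE M21 and divided by 1 step per library, 95.7% to 96.1% of values above 0 came within 0.01 of a whole number of reads, among them all values of the 5 members. IDs matched for 23388 of 23398 genes. For 341 abundant genes another length was found that gives whole reads and for 20 none, so the read totals are estimates. Plain totals would place nanoparticle libraries lower than the deposited scaling does.

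The planned test followed the FPKM unit: limma 3.58.1 in R 4.3.3 on log2(FPKM + 1), with group as the single term, a mean-variance trend and Benjamini-Hochberg adjustment over 10682 genes. The pseudocount of 1 understates the change of low genes. On simulated data of 10403 genes, 195 of 195 genes changed 4-fold were called, and so were 20 unchanged genes. The simulation gave all genes and libraries the same dispersion and had no library standing apart. It therefore checks that the test runs and does not give the error rates for these data. Ratios were tested by exact permutation in scipy 1.17.1 (Python 3.11.15, numpy 2.4.6, pandas 2.3.3), and figures drawn with matplotlib 3.10.9. Members, gene lists and the rule for named genes (the 5 members, up to 4 called genes per list by adjusted p, 5 fixed genes, and the 2 nearest profiles per member) were chosen with earlier results of these data known. Some of the genes that this rule takes are not reported here. Alternatives covered pseudocount, filter, scaling, trend, replicate block, each library left out and, chosen after seeing the data, limma-voom on the recovered reads. Replicates differed by more than counting noise (chi-square per degree of freedom at least 2.78), so none was counted as a duplicate.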

Additional observations from a re-analysis of the deposited data

How the results depend on the processing

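Mlkl and Cflar kept their direction and their call in all settings. Ripk3 passed the threshold, lower, with values rescaled to equal sums per library (TPM, -0.61), by recovered read totals (-0.47) and in limma-voom (-0.50), where Casp8 turned to -0.27, -0.14 and -0.15. Over all tested genes the median difference then became -0.44, -0.28 and -0.35. These scalings gave 884, 1108 and 1077 higher and 4241, 3610 and 3674 lower genes in place of 1817 and 1733. With TPM, 7 death receptor and ligand genes and 4 pyroptosis genes were called, in either direction, in place of 4 and 7. Over all pathway lists 23 genes were then higher and 16 lower in place of 35 and 5. Of all tested genes 8.28% were higher and 39.7% lower with TPM. Leaving out 1 library at a time gave 2141 to 6923 called genes (1114 to 3660 higher, 1027 to 3263 lower), -0.27 to 0.012 for Ripk1 and -0.028 to 0.34 for Casp8. Calls then ran from 1 to 4 among adaptors, 5 to 9 among executioner and mitochondrial genes, 4 to 8 among pyroptosis genes and 2 to 13 among MLKL and membrane repair genes. Among 33 other genes taken by the naming rule, 462 of 495 values kept direction and call, 16 lost and 8 gained the call, and 9 changed sign: Narf (TPM -0.17, read totals -0.047, limma-voom -0.075, without nanoparticle library 1 -0.0058), Hmga1b (-0.21, -0.083 and -0.095 under those scalings), and Srrm1 and Vps39 (0.023 and 0.015 without nanoparticle library 3). Leaving out each library gave -0.30 to 0.023 for Srrm1, -0.24 to 0.015 for Vps39 and -0.0058 to 0.39 for Narf. None of these 9 values was past the threshold. Where no cause is named, the cause was not tested.

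Same-numbered libraries do not share a source in the labels, and the correlations of their deviations from the group means were 0.0654, 0.113 and -0.0577, so the numbers were not taken as pairs. Vehicle library 3 did not correlate best with its own number. With the replicate number as a block 2785 genes were called in place of 3550, and 3 of the MLKL and membrane repair genes in place of 5. The block changed no call among the 5 members.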

Other observations

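Genes of pyroptosis, the other lytic death program of myeloid cells, were followed as a list too. Of 9 tested genes 7 were higher, none was lower and 2 did not pass, with a median log2 change of 1.06 against -0.0010 for all tested genes. Casp4, which encodes the caspase that senses intracellular lipopolysaccharide (caspase 11 in mouse), was at 1.95, 2.03 and 2.00 FPKM in vehicle libraries 1 to 3 and at 51.3, 27.6 and 26.6 FPKM in nanoparticle libraries 1 to 3. Its groups were apart (log2 change 3.53, SE 0.252, limma adjusted p = 2.5e-04), and library 1 was the highest. Ninj1, which mediates the rupture of the plasma membrane in lytic death, rose from 51.8 ± 3.29 to 162 ± 23.6 FPKM (SD, n = 3 each, limma adjusted p = 4.8e-04). Casp1 rose from 38.9 ± 1.41 to 160.1 ± 47.0 FPKM (limma adjusted p = 9.3e-04), and Gsdmd, the pore protein cleaved by these caspases, from 31.3 ± 0.777 to 51.4 ± 5.47 FPKM (limma adjusted p = 0.00499), a call that was lost with TPM scaling (log2 change 0.24, limma adjusted p = 0.061). Without vehicle library 1 or 2, 4 genes of this list were called, and 20.8% or 20.5% of all tested genes in place of 33.2%.

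Cflar and Casp8 are neighbours on chromosome 1, 36489 bases apart and on the same strand. Their log2 changes were 2.46 and 0.19, and the difference of their log2 ratio between groups was 2.39 (exact permutation p = 0.1, the smallest that the design allows).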
